A study of Mus musculus with 55 samples.

Results

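The genes described here encode the subunits of the ion channels that open when glutamate, GABA, glycine or acetylcholine binds to them. Their symbols begin with Gria, Grik, Grid, Grin, Gabr, Glr or Chrn followed by a subunit code, and they were selected by symbol. The family was proposed with RNA values of PRMK and PRM tumours already known, Gria4 among them, so the values of that contrast are given below as a description, with no test of the members. In all, 58 such genes are among the 51912 genes of the table on sgMeis2 and sgScramble lines, and 42 among the 15479 genes of the table on PRMK and PRM lines. They divide into 4 AMPA, 5 kainate, 2 delta and 7 NMDA subunits of glutamate receptors, 19 subunits of GABA-A receptors, 5 of glycine receptors and 16 of nicotinic acetylcholine receptors.

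Ligand-gated channels are assembled from several subunits around a central pore. AMPA, kainate and NMDA receptors pass cations in fast excitatory transmission between neurons, nicotinic receptors pass cations at synapses and at the neuromuscular junction, and GABA-A and glycine receptors pass chloride. Small cell lung cancer is a neuroendocrine tumour, and neuroendocrine cells share much of their secretory and excitable gene set with neurons.

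The series models small cell lung cancer in mice with gene-edited lung organoids, grown as tumours after injection into the left lung of recipient mice and harvested again as organoids. PRM lines carry guides against Trp53 and Rb1 and overexpress Myc from a retroviral vector, and PRMK lines carry in addition a guide against Kmt2c, which encodes a methyltransferase of lysine 4 of histone H3. RNA was read in 3 lung PRMK and 3 lung PRM libraries, and in 3 libraries of PRMK lines with a guide against Meis2 (sgMeis2) and 3 of such lines with a scrambled guide (sgScramble), so all 4 RNA groups share the Trp53 and Rb1 guides and Myc. Peak lists of open chromatin (ATAC-seq) and of H3K4me1, H3K4me2, H3K4me3 and KMT2C (CUT&Tag) came from lung PRM and lung PRMK organoids and, for ATAC-seq, H3K4me1 and KMT2C, from PRM organoids of the liver, with 2 libraries per group. The labels give no age or sex of the mice and do not say whether libraries of a group came from separate animals or lines, so p-values measure only the spread between these libraries. The plasmid label of the PRMK RNA libraries names no Kmt2c guide although their titles name PRMK, and a stranded library kit is named for PRM alone, so preparation and genotype cannot be told apart. The first PRMK library of H3K4me2, H3K4me3 and KMT2C is labelled with a Meis2 guide and the second with a scrambled guide.

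The RNA libraries held 12013253 to 24389041 counts over genes. Kmt2c RNA was at 85.1, 84.4 and 105 CPM (read counts scaled by library size) in PRMK and 113, 187 and 67.6 in PRM, with overlapping groups; a guide edits the gene and need not lower its RNA. Meis2 RNA was at 219, 224 and 137 CPM in the sgMeis2 libraries and at 259, 227 and 233 in sgScramble. PRM library 6 stood apart from the other 5 libraries of this comparison in neuroendocrine markers. The 7 measured (Chga, Syp and Insm1 among them) summed to 112 CPM there and to 2955 to 5613 CPM elsewhere. Keratin 8 was at 1118 CPM in library 6 and at 106 and 16.6 CPM in PRM libraries 4 and 5. In PRMK keratin 8 was at 832, 229 and 927 CPM, so a high level was not particular to library 6. PRM library 4 was low over whole chromosomes, with a median log2 ratio to the other libraries of -0.86 over 655 genes of chromosome 5 and -0.72 over 344 genes of chromosome 14. Of 7 muscle markers, 1 was read here (Myog, 0 to 2.35 CPM), and 3 of 7 glial markers (Mbp and Aqp4 among them) summed to 44.2 CPM in library 6 and 129 to 275 CPM in the others.

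The starts of 4 genes are printed because the RNA or peak lists differ there. Each runs from 250 bases before to 50 after the annotated start in RefSeq (GRCm38.p6), 5′ to 3′ on the strand of the gene, with CG pairs in capitals.
Gria4, an AMPA receptor subunit (chr9:4796185-4796484, minus strand): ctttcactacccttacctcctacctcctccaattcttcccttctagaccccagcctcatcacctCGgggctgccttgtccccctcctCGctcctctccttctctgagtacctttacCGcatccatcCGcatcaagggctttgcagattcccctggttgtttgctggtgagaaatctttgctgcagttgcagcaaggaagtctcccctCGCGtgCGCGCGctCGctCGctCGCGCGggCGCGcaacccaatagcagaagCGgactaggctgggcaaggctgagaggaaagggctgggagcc
Grik3, a kainate receptor subunit (chr4:125490446-125490745, plus strand): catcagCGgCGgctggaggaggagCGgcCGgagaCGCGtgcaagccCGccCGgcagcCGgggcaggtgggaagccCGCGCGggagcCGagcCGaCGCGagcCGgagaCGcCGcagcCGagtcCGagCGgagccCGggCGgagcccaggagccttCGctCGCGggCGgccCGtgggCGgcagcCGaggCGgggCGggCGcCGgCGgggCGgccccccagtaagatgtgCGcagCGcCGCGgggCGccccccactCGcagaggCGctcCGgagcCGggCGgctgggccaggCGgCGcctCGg
Chrna5, the alpha5 nicotinic subunit, at the second of its annotated starts (chr9:54981238-54981537, plus strand): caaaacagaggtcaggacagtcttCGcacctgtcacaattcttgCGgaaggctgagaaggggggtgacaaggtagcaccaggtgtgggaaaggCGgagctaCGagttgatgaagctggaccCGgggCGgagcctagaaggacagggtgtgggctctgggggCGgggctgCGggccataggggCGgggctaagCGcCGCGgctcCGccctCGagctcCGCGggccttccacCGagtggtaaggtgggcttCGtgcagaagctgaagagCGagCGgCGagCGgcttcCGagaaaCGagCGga
Gabrg1, the gamma1 GABA-A subunit (chr5:70842568-70842867, minus strand): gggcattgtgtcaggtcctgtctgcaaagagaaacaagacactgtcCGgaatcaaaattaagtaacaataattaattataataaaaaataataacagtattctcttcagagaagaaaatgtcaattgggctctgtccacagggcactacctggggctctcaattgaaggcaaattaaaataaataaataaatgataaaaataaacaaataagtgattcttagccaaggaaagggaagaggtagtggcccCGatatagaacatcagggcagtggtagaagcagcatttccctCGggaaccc
The Grik3 start holds 50 CG pairs, Chrna5 25, Gria4 17 and Gabrg1 3, against a median of 7 over 32851 annotated starts. A MEIS-type motif, TGACAG on either strand, is in 19.2% of all starts and in 9 of the 46 starts of the family; of the 4 printed, it is found in the Chrna5 start.

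In the RNA of PRMK against PRM, most of the family stood higher in PRMK, with the widest gap at Gria4 and an opposite gap at Grik3. The 16 genes of the family not analysed in this comparison include Gria1, Grin2d, Gabrb2, the glycine receptor alpha subunits and Chrne. Of the other 42, 33 passed the filter on low counts and were fitted with edgeR's quasi-likelihood test over 13914 genes. Their log2 fold change (PRMK over PRM) was above 0 for 27 and below 0 for 6, with a median of 1.01, beside a median of -0.02 and 48.6% above 0 over all genes. No gene was called by edgeR at an adjusted p under 0.05 (0% of 13914; 2384 genes and 4 of the family had an unadjusted p under 0.05), while DESeq2 called 1218 genes (8.75%) and 3 of the family: Gria4 and Chrna5 higher and Grik3 lower. In 11 of the 33 the 3 PRMK libraries all exceeded the 3 PRM libraries, as they did in 15.1% of all genes, and in none were they all lower, against 14.6% of all genes. Since these values were known when the family was proposed, nothing is read from the counts.

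**Figure D1:**
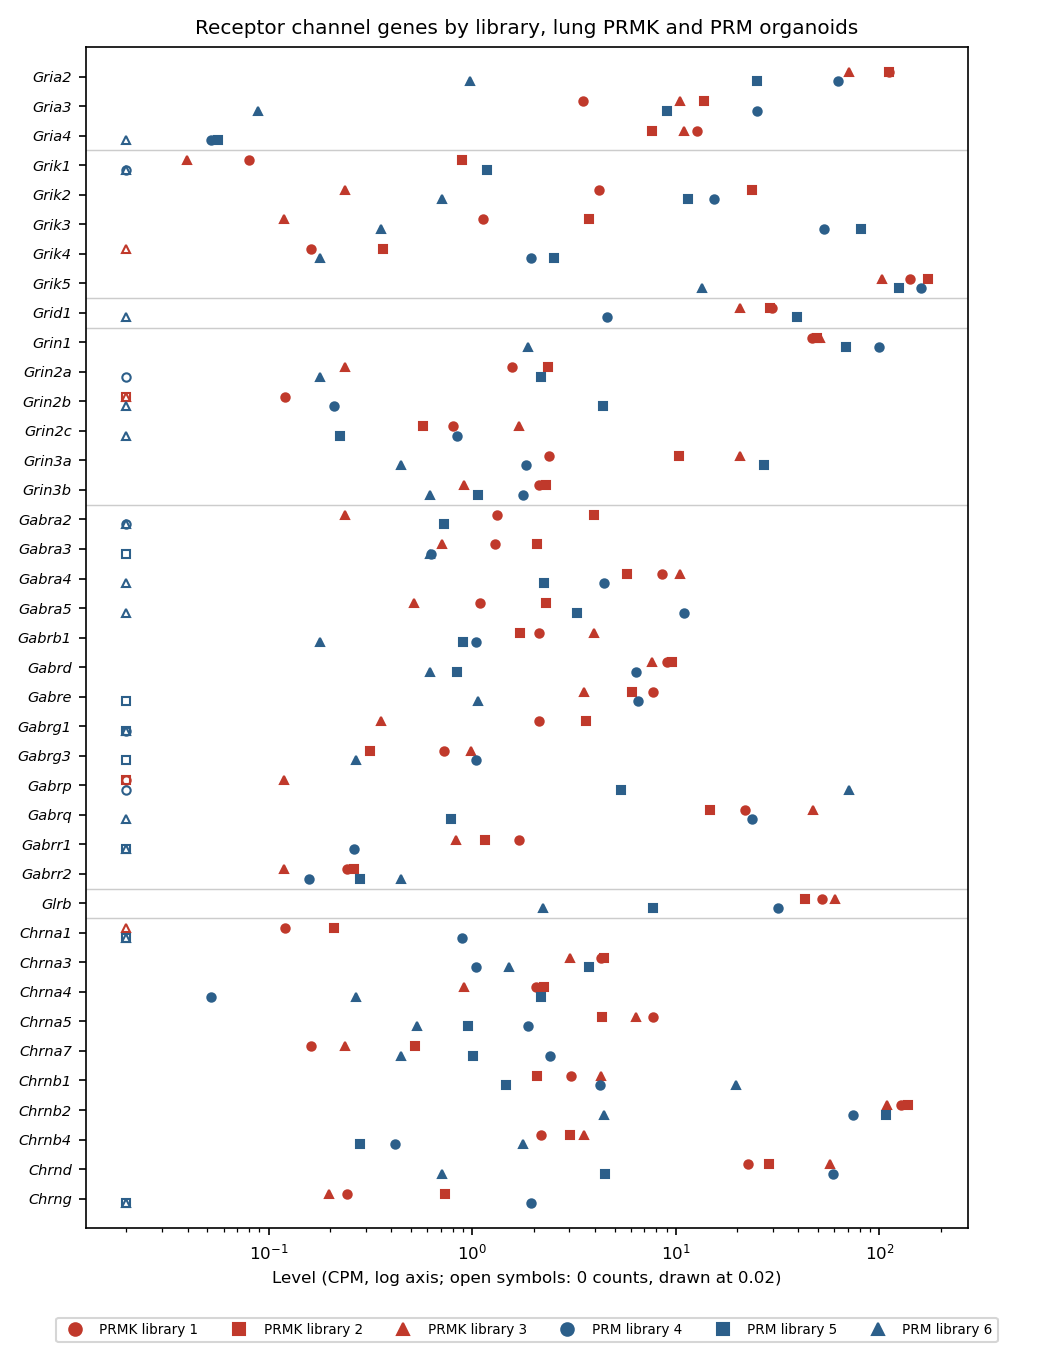
Level in CPM (log axis) of 39 receptor channel genes in each of the 3 PRMK (red) and 3 PRM (blue) libraries, ordered by receptor class, with open symbols for 0 counts. Gria4 is the gene with the widest gap between the groups, and PRM library 6 (blue triangles) is the lowest PRM library for most genes.

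Library 6 was the lowest of the 3 PRM libraries for 23 of the 33 fitted genes, beside 37.4% of all genes. The summed level of the 42 genes was 133 CPM in it, against 941 and 802 CPM in PRM libraries 4 and 5 and 819 to 989 CPM in PRMK. The low summed level was thus that of the library with few neuroendocrine transcripts, and the part of cell content in it was not tested. Fewer cells of a type and less RNA per cell cannot be told apart in these bulk libraries. Leaving a library out can add genes to those without overlap but cannot remove any, so the same 11 had to return without library 6. No fitted gene was added to the 11 higher in every PRMK library, beside 22.8% of all genes higher. Lower in every PRMK library were 5 (among them Chrna7, Gabra5, Grik3 and Grin1), beside 22.3% of all genes.

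**Figure D2:**
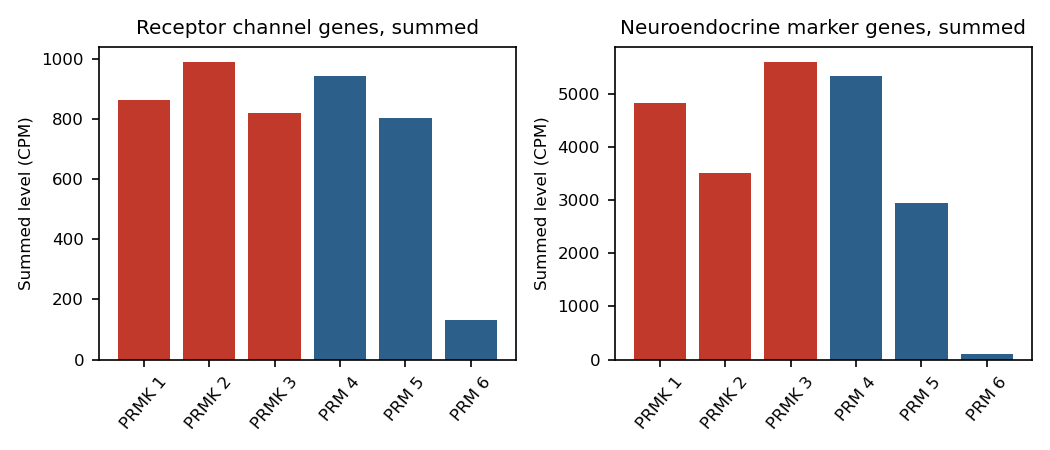
Summed level in CPM of the 42 receptor channel genes (left) and of 7 neuroendocrine marker genes (right) in each library of the PRMK (red) and PRM (blue) groups. In both panels PRM library 6 is the lowest bar, at 133 and 112 CPM.

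Among AMPA receptor subunits, which carry fast excitatory currents, Gria4 was close to absent from PRM. It was at 12.7, 7.67 and 11.0 CPM in the PRMK libraries and at 0.0523, 0.0561 and 0 CPM in the PRM libraries, which is 741 counts against 2. All PRMK libraries were far above all PRM libraries, and PRM libraries 4 and 5, which were rich in neuroendocrine transcripts, held 1 read each. The ratio of pooled counts, scaled by the pooled library sizes, was 258. Its exact 95% interval, 71.1 to 2130, covers counting error only. The Gria4 values were known when the family was proposed, so the interval describes these counts and is no test. The edgeR log2 fold change was 7.82 ± 0.78 (SE). Gria2, the subunit that makes AMPA receptors poorly permeable to calcium, was at 111, 112 and 70.8 CPM in PRMK and 62.8, 24.9 and 0.979 CPM in PRM, again without overlap, and the edgeR log2 fold change came to 1.72 ± 1.14 (SE). Gria3 overlapped between the groups, at 3.50 to 13.7 CPM in PRMK and 0.0890 to 24.9 CPM in PRM.

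The kainate receptor subunits had another order of levels. Grik3, which forms the channel of low-affinity kainate receptors, was at 1.13, 3.76 and 0.119 CPM in PRMK and 53.5, 80.8 and 0.356 CPM in PRM. PRM libraries 4 and 5 were above every PRMK library, and library 6 lay among them. The log2 fold change was -4.76 ± 1.89 (SE), and -5.35 without library 6. Grik4 was too low to be fitted, at 0.161, 0.365 and 0 CPM in PRMK and 1.93, 2.52 and 0.178 CPM in PRM, with PRM libraries 4 and 5 above every PRMK library as for Grik3. Grik5, which needs a partner subunit to form a channel, was among the most abundant of the family: 142, 172 and 102 CPM in PRMK and 161, 125 and 13.4 CPM in PRM. The groups overlapped. The fitted log2 difference of 0.48 ± 0.79 (SE) became -0.034 without library 6. Grik2 ranged from 0.238 to 23.7 CPM among the PRMK libraries alone, and Grik1 stayed under 1.2 CPM in all 6.

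Grid1, of the delta subunits that bind cerebellins, lies on chromosome 14 (chr14:34820003-35583387), where PRM library 4 was low throughout, and it was at 4.60 CPM in that library, 39.6 in PRM library 5, 0 in library 6 and 20.6 to 29.7 CPM in PRMK. Of the NMDA receptor subunits, Grin1, the obligatory subunit, was at 46.7, 49.2 and 50.9 CPM in PRMK and 99.7, 68.4 and 1.87 CPM in PRM. The PRMK libraries lay within a narrow band between the 2 PRM libraries above and the 1 below. The Grin2 subunits analysed in this comparison, which pair with Grin1, were low. Grin2a reached 2.35 CPM, Grin2b 4.37 CPM (in PRM library 5) and Grin2c 1.70 CPM at most. Grin3a was more variable, at 2.37 to 20.7 CPM in PRMK and 0.445 to 27.0 CPM in PRM.

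Of 11 fitted GABA-A receptor genes, 5 were higher in PRMK without overlap, beside 15.1% of all genes. For AMPA genes this was 2 of 3, for acetylcholine receptor genes 3 of 8 and for glycine receptor genes 1 of 1. It was 0 of 3 for kainate, 0 of 2 for delta and 0 of 5 for NMDA genes. GABA-A receptors usually combine alpha and beta subunits with another kind such as gamma or delta. Gabra4 was at 8.56, 5.74 and 10.5 CPM in PRMK and 4.44, 2.24 and 0 CPM in PRM. Gabrb1 was at 2.13, 1.72 and 3.96 CPM in PRMK and 1.05, 0.897 and 0.178 CPM in PRM. These neighbours are on chromosome 5, where library 4 was low as a whole, although library 4 was the highest PRM library for both. Their gene models overlap at the starts, as do those of Chrna3 and Chrna5 at the ends, and reads of the shared stretches cannot be split without strand.

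Gabrd, the delta subunit of receptors outside synapses, was at 9.05, 9.55 and 7.61 CPM in PRMK and 6.38, 0.841 and 0.623 CPM in PRM. Gabrr1, a rho subunit that forms channels of its own, was at 1.69, 1.15 and 0.832 CPM in PRMK and 0.261, 0 and 0 CPM in PRM, and its log2 fold change was 3.59 ± 1.25 (SE). Gabra3 was at 1.29, 2.09 and 0.713 CPM in PRMK and 0.627, 0 and 0.623 CPM in PRM. In all 3 genes the lowest PRMK library was above the highest PRM library, by a small margin for Gabra3 and Gabrd.

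Gabrg1, a gamma subunit also on chromosome 5, had counts in PRMK alone. It was at 2.13, 3.60 and 0.356 CPM in PRMK and had 0 counts in the 3 PRM libraries. The mean PRMK level was 32.6 times a floor of 3 counts over the PRM group. This ratio is no lower bound, since it leaves out the spread among libraries, and PRMK library 3 held 9 counts. Gabrg1 did not pass the filter on low counts, so it has no fitted value. Other GABA-A genes overlapped between the groups: Gabra2, Gabre, Gabrg3 and Gabrr2 were at 7.72 CPM or less, and Gabrq, the theta subunit, was at 14.8 to 47.1 CPM in PRMK and 0 to 23.7 CPM in PRM. Gabra5 ran the other way, at 1.09, 2.30 and 0.515 CPM in PRMK and 10.9, 3.25 and 0 CPM in PRM, with library 6 again the exception. Gabrp, the pi subunit known from epithelia outside the nervous system, was highest in PRM library 6: 70.7 CPM there, 5.38 in library 5, 0 in library 4 and 0, 0 and 0.119 CPM in PRMK. Epcam, Cdh1, Krt8 and Krt18 summed to 2814 CPM in library 6 and 48.6 CPM in library 5. These epithelial transcripts summed to 159 CPM in PRM library 4 and to 1722, 517 and 2860 CPM in the PRMK libraries. A relation of Gabrp to them was not tested.

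Glrb, the beta subunit that ties glycine receptors to gephyrin, was the 1 glycine receptor gene analysed in this comparison. It was at 52.2, 43.3 and 60.4 CPM in PRMK and 31.8, 7.74 and 2.23 CPM in PRM, and its log2 fold change was 1.90 ± 0.89 (SE). Every PRMK library was above every PRM library.

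Among nicotinic receptor genes, Chrna5, an accessory subunit, was at 7.68, 4.33 and 6.34 CPM in PRMK and 1.88, 0.953 and 0.534 CPM in PRM. The groups were apart, with a log2 fold change of 2.43 ± 0.63 (SE). Its neighbours on chromosome 9 were low: Chrnb4 was at 2.17, 3.03 and 3.53 CPM in PRMK and 0.418, 0.280 and 1.78 CPM in PRM, also without overlap, whereas Chrna3 overlapped at 3.01 to 4.44 CPM in PRMK and 1.05 to 3.76 CPM in PRM. Chrnb2, the common neuronal beta subunit, was abundant, at 127, 138 and 108 CPM in PRMK and 74.1, 107 and 4.45 CPM in PRM; its margin rested on a gap between 108 and 107 CPM. Chrna4, the usual partner of Chrnb2, was at most 2.25 CPM. Chrna7, which forms channels alone, was lower in PRMK on average, at 0.161 to 0.522 CPM against 0.445 to 2.40 CPM.

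The muscle-type subunits were also measured. Chrnd, the delta subunit of the muscle receptor, was at 22.5, 28.6 and 57.3 CPM in PRMK and 59.0, 4.48 and 0.712 CPM in PRM, and was among the 5 highest of the family per length in both groups. Chrnb1, the muscle beta subunit, peaked at 19.8 CPM in PRM library 6 and lay between 1.46 and 4.28 CPM in the other 5 libraries. Chrna1 and Chrng, which complete the fetal muscle receptor, stayed under 2 CPM in all libraries.

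Levels of different genes were compared as CPM divided by gene length, relative to the median fitted gene of the sgMeis2 table. On this scale, among the highest in PRMK were Grik5 at 73.4, Chrnb2 at 45.0, Chrnd at 35.7 and Glrb at 32.4. Among the highest in PRM were Grik5 at 52.6, Grik3 at 26.7, Chrnb2 at 22.4 and Chrnd at 21.2. Grik3, at 26.7 in PRM, was at 0.991 in PRMK.

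The genes that serve these receptors were counted from 6 lists. Of 31 auxiliary subunits and scaffolds of glutamate receptors, 27 were fitted, 17 of them with a log2 fold change above 0 and a median of 0.69; none was called by edgeR, and DESeq2 called 2 higher. Beside the counts of this and the other lists, 48.6% of all fitted genes were above 0 and DESeq2 called 8.75%, so 2 calls among 27 genes, 2 among 18 or 1 among 10 are near the share of all genes. Homer2, a scaffold that binds metabotropic receptors, was at 435, 308 and 341 CPM in PRMK and 161, 89.0 and 37.1 CPM in PRM. Cnih2, which traffics AMPA receptors, was at 71.0, 67.8 and 35.5 CPM in PRMK and 14.6, 19.8 and 1.60 CPM in PRM. Dlg4, which encodes PSD-95, was at 144, 162 and 124 CPM against 105, 112 and 49.1 CPM. All 3 were higher in each PRMK library than in any PRM library, but partner genes were named for a call or for such a gap. In the whole list this held for 7 of the 27 fitted genes, beside 15.1% of all genes. For 0 of the 27 were all PRMK libraries lower, beside 14.6% of all genes, and 10 had a log2 fold change below 0.

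Anchoring genes of GABA and glycine receptors all had values above 0 (8 of 8, median 0.76), with no call by either tool. Gabarap was at 183, 178 and 194 CPM in PRMK and 134, 63.6 and 107 CPM in PRM. For assembly and anchoring of acetylcholine receptors, 5 of 10 fitted genes were above 0, and DESeq2 called 1 higher. Of 18 fitted genes for synthesis, transport and breakdown of the transmitters, 7 were above 0 and DESeq2 called 2 lower. Of the chloride transporters, Slc12a2, which brings chloride into the cell, was at 72.0, 79.0 and 122 CPM in PRMK and 122, 178 and 144 CPM in PRM. Among G protein-coupled receptors of the same transmitters, 7 of 10 fitted were above 0, and DESeq2 called 2 higher.

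**Figure D3:**
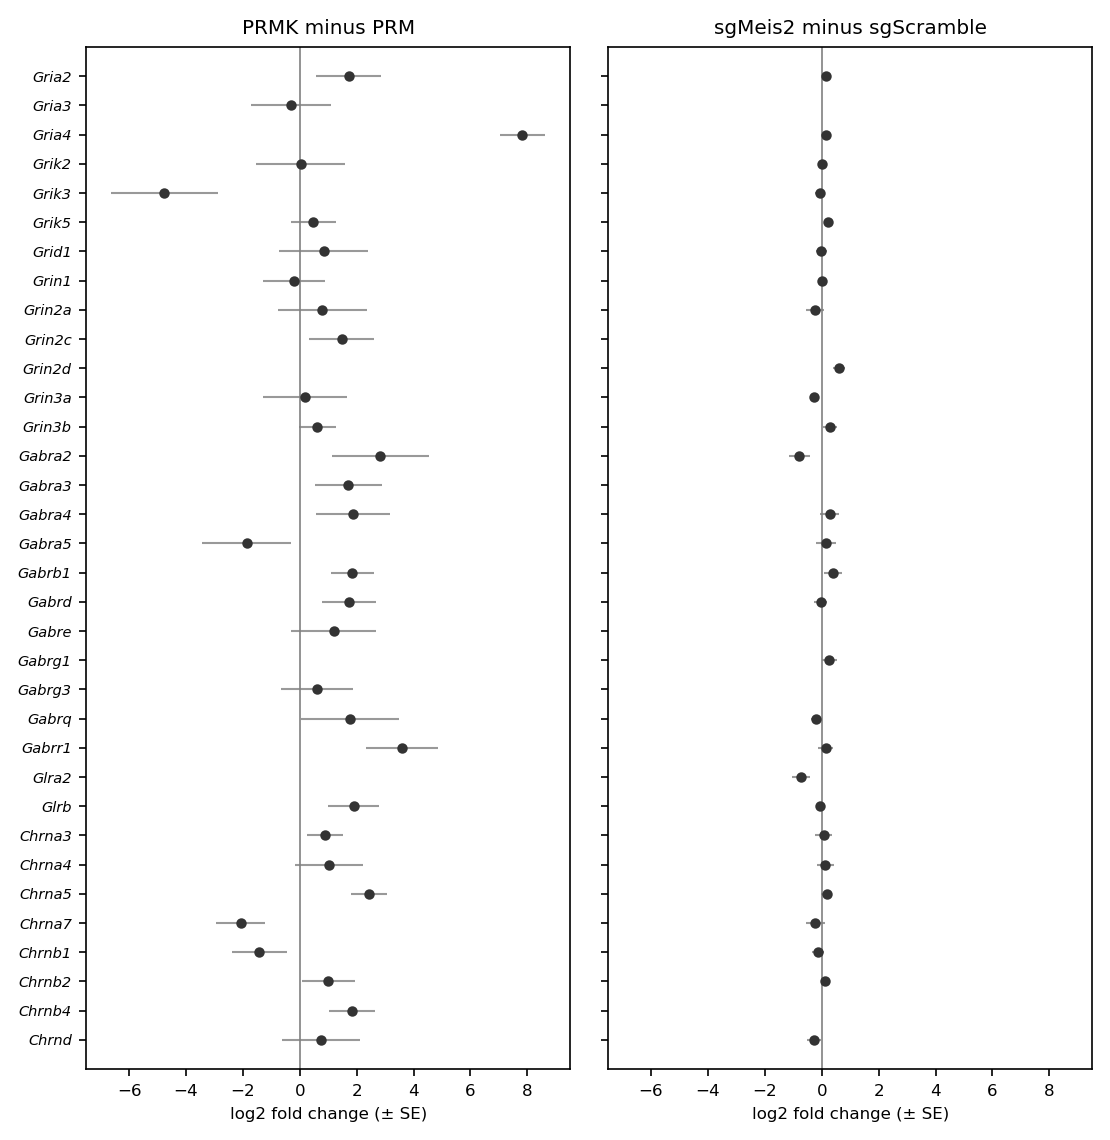
Log2 fold change with its standard error (edgeR) for receptor channel genes fitted in PRMK against PRM (left, 31 genes) and in sgMeis2 against sgScramble (right, 28 genes), 3 libraries per group, on the same axis. On the left Gria4 lies at 7.82 and Grik3 at -4.76, and on the right all values lie between -0.79 and 0.60.

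The comparison of sgMeis2 with sgScramble asks whether the family changes when Meis2, a homeobox gene, is targeted in PRMK lines. Meis2 was at 139, 215 and 272 CPM in PRMK and 0.889, 1.46 and 17.3 CPM in PRM in the other table. No change of the family was detected: of 58 genes 30 were fitted, 15 above and 15 below 0, with a median of 0.002 beside 0.004 over all 16260 genes. Neither edgeR (0% of all genes; 760 genes and 2 of the family at an unadjusted p under 0.05) nor DESeq2 (22 genes, 0.135%) called a member. In 3 of the 30 every sgMeis2 library exceeded every sgScramble library, against 8.12% of all genes, and in 2 every one was lower, against 7.92%; both shares are near those of all genes.

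Grin2d, an NMDA subunit of the developing brain, was the member with the lowest p. It was at 4.48, 3.20 and 4.56 CPM in sgMeis2 and 2.85, 2.89 and 2.31 CPM in sgScramble, higher in 3 of 3 libraries. The edgeR fit gave 0.60 ± 0.20 (SE) on the log2 scale and an adjusted p of 0.754. Grik5 was at 91.3, 87.3 and 114 CPM against 81.3, 84.4 and 83.0 CPM, and Chrnb2 at 98.3, 97.3 and 107 CPM against 87.4, 95.8 and 97.0 CPM. Both were without overlap by narrow margins, and both had an adjusted p of 0.754 by edgeR. Glra2, a glycine receptor alpha subunit, was at 0.422 to 0.595 CPM in sgMeis2 and 0.702 to 1.06 CPM in sgScramble, and Gabra2 at 0.320 to 0.633 CPM and 0.743 to 1.15 CPM.

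Gria4 did not differ beyond the spread of the libraries. It was at 4.64, 5.08 and 5.15 CPM in sgMeis2 and 3.86, 5.41 and 4.09 CPM in sgScramble, and the edgeR fit gave 0.16 ± 0.17 (SE) on the log2 scale and an adjusted p of 0.774. It was thus above 3.8 CPM in every library of both groups of PRMK lines, which were normalized apart from the PRM libraries. Gabrg1 was at 0.619 to 1.05 CPM over the 6 libraries. Chrna5 was at 6.65 to 7.28 CPM in sgMeis2 and 5.11 to 7.76 CPM in sgScramble. Grik3 was at 5.54, 5.63 and 4.24 CPM in sgMeis2 and 6.07, 4.65 and 5.33 CPM in sgScramble, with overlapping groups.

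Among the most abundant genes per length in sgScramble were Grik5 at 43.8, Chrnb2 at 33.7, Glrb at 22.2 and Grin1 at 18.1. In sgMeis2, Grik5 was at 51.6, Chrnb2 at 36.4, Glrb at 21.4 and Grin1 at 18.1, in the same order. Without sgMeis2 library 3 edgeR called 46 genes in the whole table and none of the family. Glrb was at 32.3 to 36.6 CPM in sgMeis2 and 34.0 to 37.9 CPM in sgScramble. Grin1 was at 50.3 to 51.9 CPM and 49.5 to 52.9 CPM. Gabra3, Gabra6, Gabrg3, Gabrp, Gabrr3, Gria1, Chrna2 and Chrna6 had 0 counts in all 6 libraries. The partner genes did not pass either test in this comparison: the lowest edgeR adjusted p among those named was 0.754, as for Agrn, the organizer of the muscle synapse, at 168, 158 and 217 CPM in sgMeis2 and 135, 141 and 145 CPM in sgScramble.

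Peaks were counted within 1 kb of the start for the 41 members whose start is in the reference, and over the whole gene for all 58. H3K4me3 marks active starts, H3K4me2 starts and nearby elements, and H3K4me1 enhancers and the flanks of starts. With 2 libraries per group no test was made. H3K4me3 peaks were found at 14 and 16 of the 41 starts in lung PRM and at 19 and 11 in lung PRMK, when 43.3% to 46.3% of all 27025 genes had one in these 4 lists. The 9 members with a peak in all 4 were Chrna3, Chrna5, Chrnb1, Chrnb2, Glrb, Gria2, Grik5, Grin1 and Grin2d, and their starts held 10 to 33 CG pairs (median 18). The 18 members with a peak in none of the 4 had 0 to 22 (median 5). The other 14, with a peak in some of the lists, had 3 to 50 (median 24.5), so CG pairs did not rise steadily with the number of lists. None of the 41 had a peak in both lists of 1 genotype and neither of the other, where 0.311% of all genes had one in PRMK only and 0.71% in PRM only.

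**Figure D4:**
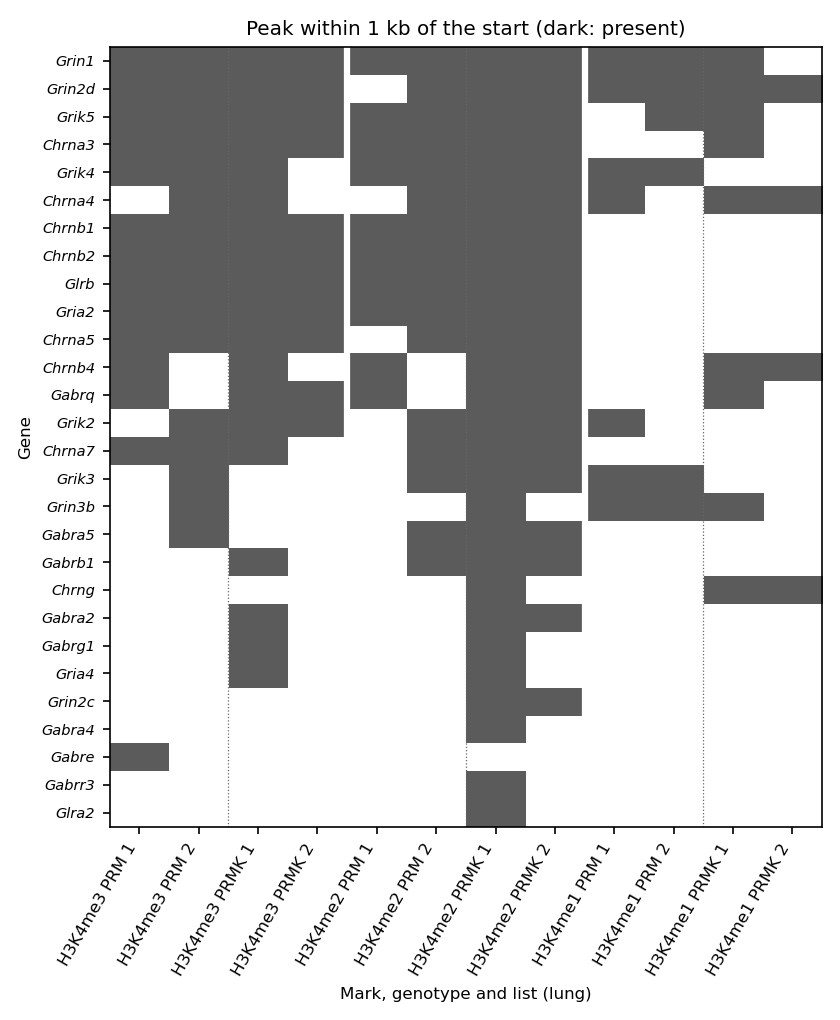
Peaks within 1 kb of the start of 28 receptor channel genes (rows) in the lung PRM and PRMK lists of H3K4me3, H3K4me2 and H3K4me1 (columns, 2 lists per genotype), with dark cells for a peak. Members without a peak in any of the 12 lists are not drawn. Grik3 and Grik4 have H3K4me1 in both PRM lists only.

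At the Gria4 start printed above, H3K4me3 and H3K4me2 peaks were in the first PRMK list and not in the second, nor in any PRM list. The first PRMK library of both marks is the one labelled with the Meis2 guide. The Chrna5 starts had H3K4me3 peaks in all 4 lists, so the H3K4me3 lists did not separate the genotypes there as the RNA levels did. H3K4me2 was there in the second PRM list and both PRMK lists. The KMT2C lists, which differ widely in length, had a peak there in both PRMK and both liver PRM lists and neither lung PRM list. At the CG-poor Gabrg1 start, H3K4me3 and H3K4me2 were again in the first PRMK list alone. The Grik3 start had H3K4me3 in the second PRM list only, and H3K4me2 in that list and both PRMK lists.

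H3K4me2 peaks were found at 10 and 16 member starts in lung PRM and at 27 and 20 in lung PRMK, beside 44.8% and 46.5% of all genes in PRM and 51.3% and 48.3% in PRMK. The first PRMK list was the longest, at 32410 peaks against 20164 to 23433 in the others. Gabra2 and Grin2c had a peak in both PRMK lists and neither PRM list, 2 of 41 where 1.96% of all genes did so, and no member had the reverse (0.281% of all genes). With a gain meaning a peak in both PRMK lists and neither PRM list, and a loss the reverse, H3K4me1 peaks at the start were gained by Chrnb4 and Chrng (3.25% of all genes) and lost by Grik3 and Grik4 (2.28% of all genes). Both losses depended on the window: with 2 kb on either side Grik3 had a peak in both genotypes, and with at least 100 bp shared Grik4 no longer differed in both pairs of lists. At Grik3 the H3K4me1 peak was also in both liver PRM lists.

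H3K4me1 was also counted over whole gene bodies. Among 34 members with a peak in any lung list, both PRMK lists held fewer peaks than both PRM lists over 5 genes: Grik2, Grik3, Grik4, Grin2a and Grin2b. These are glutamate receptor subunits, but so are Gria1, Grid1, Grik1, Grik5 and Grin2d, which held more peaks in PRMK. By bases covered, 10 members were lower in both PRMK lists, Chrnb2, Chrnd and Gabrr3 among them. Over all 17009 genes with a peak, 12.6% held fewer peaks in both PRMK lists, so 5 of 34 is near the share of all genes. Grik4 (chr9:42518182-42945000) held 23 and 21 peaks in lung PRM and 8 and 6 in lung PRMK, or 17.6% and 16.6% of its length against 6.04% and 2.80%. Grik3 (chr4:125490259-125714173) held 14 and 11 peaks against 5 and 2, and 21.5% and 16.4% of its length against 5.35% and 1.99%. Grin2a held 11 and 11 against 6 and 3, Grin2b 8 and 8 against 1 and 3, and Grik2 4 and 2 against 0 and 0. The liver PRM lists lay with lung PRM, at 23 and 26 peaks for Grik4 and 12 and 19 for Grik3. Both PRMK lists held more peaks as a whole (38075 and 36911) than the lung PRM lists (30399 and 27746). In bases they covered 147520009 and 77419536, against 124724178 and 111368732 in lung PRM, so the second PRMK list was the smallest of the 4 by this measure.

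More peaks in both PRMK lists were found over 11 members, beside 23.6% of all genes. These were Chrnb4, Chrne, Chrng, Gabrg3, Gabrq, Glrb, Gria1, Grid1, Grik1, Grik5 and Grin2d. Grid1 held 18 and 18 peaks in PRMK and 10 and 8 in PRM (but overlapped by bases covered), Glrb 3 and 3 against 0 and 0, and Grik5 5 and 5 against 1 and 2. Gria4 held 1 and 0 in PRMK and 0 and 0 in lung PRM. Of the members with fewer peaks in PRMK, Grik3 and Grik4 had higher RNA in PRM libraries 4 and 5 than in any PRMK library, Grin2b was low throughout apart from PRM library 5, and Grik2 and Grin2a overlapped.

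**Figure D5:**
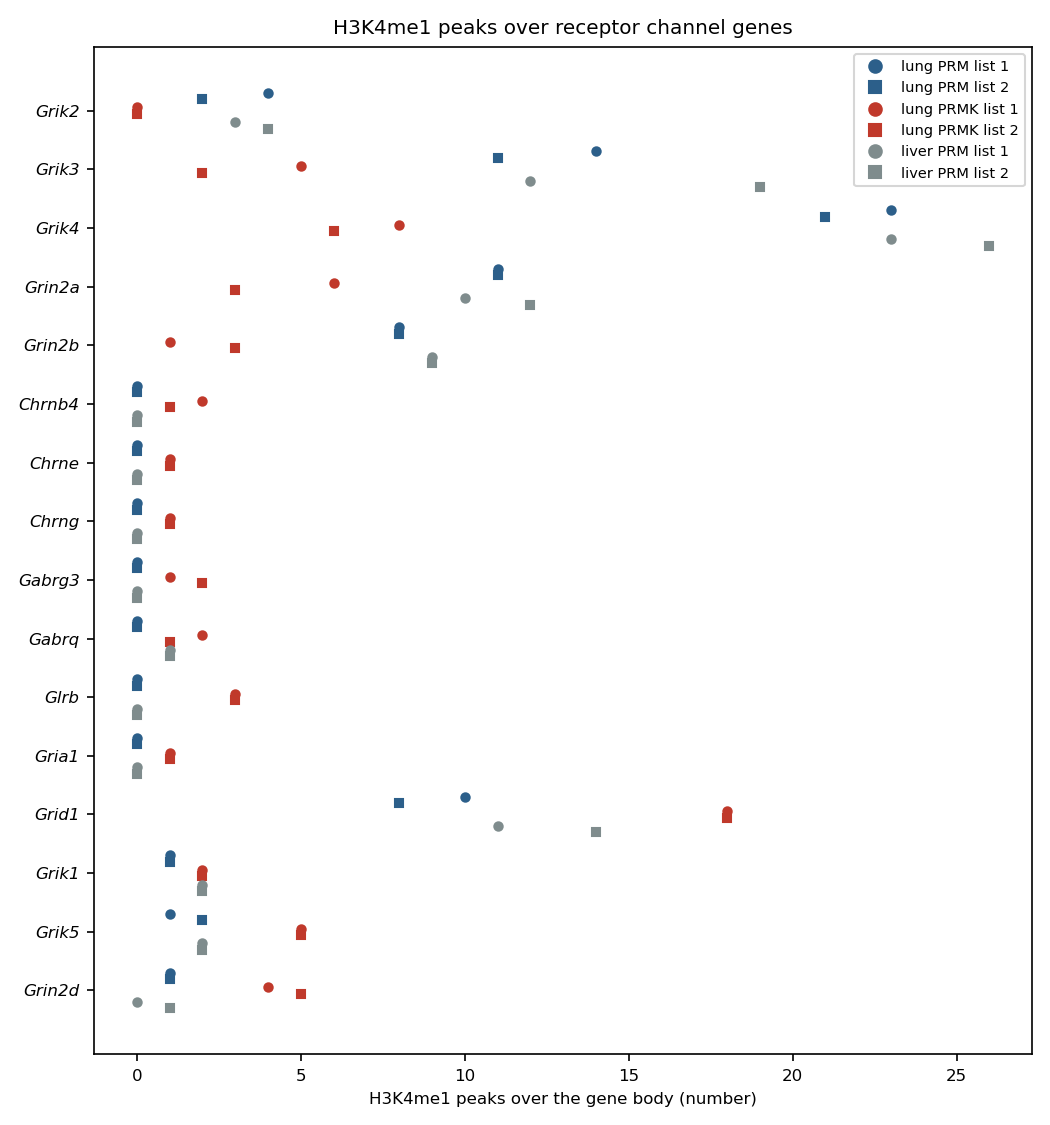
Number of H3K4me1 peaks over the gene body in each of the 2 lung PRM (blue), 2 lung PRMK (red) and 2 liver PRM (grey) lists, for the 16 members whose lung PRM and PRMK lists do not overlap. For Grik2, Grik3, Grik4, Grin2a and Grin2b (top) the PRMK points lie left of all PRM points of lung and liver.

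KMT2C and ATAC-seq lists were too unequal in length for a comparison of genotypes. KMT2C lists held 9949 and 16681 peaks in lung PRM, 187682 and 134561 in lung PRMK and 65201 and 113129 in liver PRM, and thus the genotype with the Kmt2c guide had the longest. Chrnb1 and Grin1 had a KMT2C peak at the start in all 6 of these lists. Over the Gria4 gene there were 0 and 0 KMT2C peaks in lung PRM, 7 and 8 in PRMK and 0 and 1 in liver PRM. ATAC-seq lists held 64596 and 19834 peaks in lung PRM, 593 and 54201 in lung PRMK and 345 and 141 in liver PRM. At most 4 member starts had an ATAC-seq peak in any list.

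The 17 members whose start is not in the reference were read at both ends of the gene, since their strand is not given. Gabrd, Gria3, Grid1 and Grin2a were among those that had an H3K4me3 peak within 1 kb of an end in all 4 lung lists. Grin2b had one in both PRM lists and neither PRMK list, and the same held for H3K4me2 there. At an end of Grin2a, H3K4me1 was in both PRM lists of lung and of liver and in neither PRMK list. Windows at gene ends were counted for members only, so the share of all genes is not known and nothing is read from these differences.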

How the data were processed

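RNA-seq values were the read counts per gene deposited by the authors in 2 tables, each fitted alone. Per the submitters' processing notes, STAR 2.6.0a, Bowtie2 2.2.1, SEACR and DESeq2 were among the tools used and the build was mm10 or GRCm38; the counter and its strand setting are not stated there. Counts were fitted with edgeR 4.0.16 in R 4.3.3 (quasi-likelihood test, TMM factors, filterByExpr, Benjamini-Hochberg adjusted p under 0.05), with DESeq2 1.42.0, other factors, no filter and left-out libraries as alternatives. CPM values use the TMM library sizes. In simulated tables of 13914 genes edgeR recovered 22 of 100 genes changed 4-fold and 81 of 100 changed 16-fold for PRMK against PRM, and called 3 others; DESeq2 recovered 67 and 96 and called 81 others. For 16260 genes of sgMeis2 against sgScramble edgeR recovered 99 and 100.

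In the sgMeis2 table a second deposited column per library, used here as a score, was proportional to counts over gene length and gave relative lengths. In the deposited peak lists, the score of an ATAC-seq peak and the signal of a CUT&Tag peak are the authors' own and served only to rank peaks within a list; the core block of ATAC-seq peaks was used. A peak counted when it shared at least 1 bp with the window. Per the labels, PRM RNA titles are numbered 3 to 5 and the columns 4 to 6, so PRM libraries are named by their columns.

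The members and lists were chosen with earlier results of these data known. Members were named with values from every library when a fit called them (DESeq2 where edgeR called none), when groups did not overlap at a mean of at least 1 CPM, or when among the highest 5 per length; others are summarised, and at most 12 partner genes were eligible, in order of CPM. The equal replicate numbers of sgMeis2 and sgScramble did not pair the libraries. DNA methylation, single-cell data and SAM-treated lines were not analysed here. A few genes that enter the counts and sums are not reported by name here.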

Additional observations from a re-analysis of the deposited data

How the results depend on the processing

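DESeq2 in place of edgeR called 1218 genes and 3 members for PRMK against PRM, and 22 genes for sgMeis2 against sgScramble, where edgeR called 0. With each library left out in turn, edgeR called 0 to 796 genes and 0 to 2 members for PRMK against PRM (796 and 2, Gria4 and Gabrd, without PRM library 4), and 0 to 46 genes and 0 members for sgMeis2 against sgScramble (46 without sgMeis2 library 3). The members higher in every PRMK library numbered 11 to 17 (17 without PRM library 4 or 5, beside 27.1% and 20.4% of all genes). Those lower in every PRMK library numbered 0 to 5 (5 without PRM library 6, 1 without PRMK library 2, beside 22.3% and 17.8% of all genes). These counts were recomputed after seeing the data, and leaving a library out cannot lower them. Some directions turned with a library left out. For PRMK against PRM the log2 fold change of Grik5 ranged from -0.034 (without PRM library 6) to 0.98. For sgMeis2 against sgScramble, Grin1 ranged from -0.024 to 0.026. The cause was not tested. With the replicate block, sgMeis2 against sgScramble gave 0 called genes and 0 called members, so no call changed; same-numbered libraries deviated from their group means with correlations of -0.0009 to 0.0326. No paired analysis was possible for PRMK against PRM because their titles share fewer than 2 replicate numbers. With only the stronger 50% of each peak list, 122 instead of 245 pairs of member and list had a peak at the start, and 1 instead of 6 members differed between genotypes over the 3 histone marks, and the cause was not tested. Counted by bases covered, chosen after seeing the data, 10 instead of 5 members had less H3K4me1 over the gene in both PRMK lists, as the share of all genes went from 12.6% to 24.1%. With 2 or 3 libraries per group and 12013253 counts in the smallest, members under 1 CPM rest on a few counts.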
